A study of Mus musculus with 61 samples.

Results

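The 10 genes described here are members of the bone morphogenetic protein (BMP) pathway, out of 55052 genes in the expression tables. They were chosen by symbol and by role, as 3 ligands (Bmp2, Bmp4 and Bmp7), 2 secreted antagonists (Nog and Chrd) and 5 genes that BMP signalling is known to induce (Id1, Id2, Id3, Msx1 and Msx2). All 10 had 1 row each in every table.

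BMP ligands are secreted dimers that bind paired type I and type II serine-threonine kinase receptors, which phosphorylate SMAD1, SMAD5 and SMAD8 so that these enter the nucleus with SMAD4. Noggin (Nog) and chordin (Chrd) bind the ligands outside the cell and keep them from the receptors, and the Id genes, which encode inhibitors of basic helix-loop-helix factors, are widely used readouts of the pathway. In the vertebrate body axis, BMP signalling is known to pattern the lateral mesoderm and the dorsal neural tube, while the node and notochord are known sources of chordin and noggin.

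RNA-seq was done on stembryos (gastruloids), aggregates of mouse embryonic stem cells that received a pulse of the GSK-3 inhibitor Chiron, a Wnt agonist, ending at 72 h and then elongated. Expression was given as FPKM (fragments scaled to transcript length and to library depth) for 61 libraries in 28 conditions. The wild type (wt) comprised a time course with 2 libraries at each of 72, 84, 96, 108, 120, 132, 144 and 168 h, and control libraries outside it (4 for 96 h, 4 for 120 h and 2 for 144 h). The 8 mutant lines, in 17 conditions, carried changes at the HoxD cluster on chromosome 2.

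Del(CBS1), Del(CBS2) and Del(CBS4) each lacked 1 CTCF binding site of the cluster, Del(CBS1-2) lacked both CBS1 and CBS2, and Del(CBS1-5) lacked the run from CBS1 to CBS5. Del(d1-d4) lacked the anterior part of the cluster, Del(sub-TAD1) lacked the neighbouring regulatory domain, and Ins(2xCBS-d4d8) carried 2 added CTCF sites. Each mutant condition had 2 libraries, except Del(sub-TAD1) at 96 h with 3. Del(CBS4) was measured at 120 and 144 h, Del(CBS1-5) at 96, 120 and 144 h, and the others at 96 and 120 h. Most lines were homozygous CRISPR clones of the wt stem cells, Del(CBS1-2) being made from Del(CBS1) cells. Del(CBS1-5) and Del(sub-TAD1) were instead derived from mouse blastocysts, and for Del(sub-TAD1) the parent mice carried a fosmid transgene covering Mtx2, a gene the deletion removes. The mice used for line derivation were backcrossed to hybrids of other strains than that of the wt stem cells. In both lines the deletion therefore comes with a different strain background and derivation, from which its effect cannot be told apart. The part of background and derivation in the values of these lines was not tested. Each library was a pool of stembryos, and from 108 h only elongating ones were collected. All groups shared the Chiron pulse. P-values measure the spread between these libraries, which may be technical in part.

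None of the mutated sequences lies near a member. Bmp2 (133552159 to 133562885), Id1 (152736251 to 152737410) and Bmp7 (172868012 to 172940321) are on chromosome 2 of mm10, at 58.9, 78.1 and 98.2 Mb from Hoxd13, and the other 7 are on other chromosomes. Id3 lies on chromosome 4 (136143497 to 136145392), Msx1 on chromosome 5 (37820485 to 37824583), Nog on chromosome 11 (89300638 to 89302332), Id2 on chromosome 12 (25093799 to 25097140), Msx2 on chromosome 13 (53466884 to 53473074), Bmp4 on chromosome 14 (46383520 to 46390669) and Chrd on chromosome 16 (20733127 to 20742384). All 10 are protein coding. Bmp4 overlaps the genes Gm15217 and Gm15222 and Chrd overlaps Thpo, all on the opposite strand, and reads of such pairs could not be told apart if strand was not used in the quantification.

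The libraries fell into 2 sets. Set 1 held 28 libraries with 576 to 1464 FPKM of mt-Co2 and set 2 held 33 libraries with 0.205 to 3.85 FPKM. Set 2 comprised every time-course library, replicate 4 of the wt controls at 96 and 120 h, both wt controls at 144 h, and among the mutants Ins(2xCBS-d4d8) and Del(CBS4) throughout, Del(sub-TAD1) at 96 h and Del(CBS1-5) at 144 h. Each mutant was therefore also compared with wt libraries of its own set alone, time course included (3 libraries for 96 h, 3 for 120 h and 4 for 144 h), and the calls that this second comparison keeps are given beside the first. For each gene this fit shares 1 estimate of the spread, and its set 2 controls join time-course and other wt libraries. At 120 h the SD of Msx1 was 2.80 FPKM in those controls and 0.271 in those of set 1. A call can thus be lost at an unchanged log2 change, also in set 1. Depth inferred from the values was 15.1 to 38.9 M fragments per library. Hoxd1, Hoxd3 and Hoxd4 were listed at 0 in all 4 Del(d1-d4) libraries and were at 4.59 FPKM or more in the 8 wt controls of 96 and 120 h.

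Stretches before a RefSeq transcript start of a ligand, an antagonist and 2 targets whose levels moved in the comparisons below are shown for orientation. They cover 250 bases (build GRCm38.p6, the same as mm10), 5′ to 3′ on the gene's strand. For Id2 only the 89 bases free of annotated UTR are shown. These lie inside the Id2 span given above, before a RefSeq start within the gene. The Id3 and Msx2 windows, not shown, lay wholly in annotated UTR inside their genes. Of the 10 members, 6 had a window (Bmp4, Chrd, Id2, Id3, Msx1 and Msx2). Capitals mark GTCT or its reverse complement AGAC, the core letters bound by SMAD proteins, and GGCGCC, a GC-rich SMAD element that reads the same on both strands. The regions are chr14:46390670-46390919 (minus strand) for Bmp4, chr16:20732877-20733126 (plus strand) for Chrd, chr12:25096254-25096342 (minus strand) for Id2 and chr5:37824586-37824835 (minus strand) for Msx1. 
Bmp4: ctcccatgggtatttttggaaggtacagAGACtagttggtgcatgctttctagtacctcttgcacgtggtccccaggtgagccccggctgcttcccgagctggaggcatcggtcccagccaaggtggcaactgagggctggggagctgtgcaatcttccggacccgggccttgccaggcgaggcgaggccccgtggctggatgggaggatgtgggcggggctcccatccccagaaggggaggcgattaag
Chrd: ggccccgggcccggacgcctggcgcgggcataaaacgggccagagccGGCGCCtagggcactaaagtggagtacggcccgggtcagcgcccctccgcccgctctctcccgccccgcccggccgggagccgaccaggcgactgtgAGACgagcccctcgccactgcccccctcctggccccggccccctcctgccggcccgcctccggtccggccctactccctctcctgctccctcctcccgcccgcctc
Id2: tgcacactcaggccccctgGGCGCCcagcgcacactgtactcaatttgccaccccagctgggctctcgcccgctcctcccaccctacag
Msx1: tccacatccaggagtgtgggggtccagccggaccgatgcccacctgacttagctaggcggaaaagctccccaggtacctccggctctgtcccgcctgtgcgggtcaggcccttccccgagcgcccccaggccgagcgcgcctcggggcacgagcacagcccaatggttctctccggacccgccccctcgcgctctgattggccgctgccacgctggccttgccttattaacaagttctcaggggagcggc
GGCGCC stood in 2 of the 6 members' windows, those of Chrd (203 bases before the start) and Id2 (231 bases before it), and in 9.59% of all 32851 windows of the same length. GTCT on either strand stood in 5 of the 6, all but Msx1, and in 82.9% of all windows. These are matches of letters and not measured binding sites.

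In the wt time course the BMP targets of the Id family rose steeply, while the ligands changed less and in different directions. Levels differed among the 8 stages for all 10 members (limma F test, Benjamini-Hochberg adjusted p under 0.05), against 61.8% of the 17098 genes tested. Between neighbouring stages, 18 of 70 member tests passed, 13 higher and 5 lower, against 10.2% of all gene tests over the 7 steps. From 72 to 168 h, a contrast added after the data had been seen, 9 of 10 members passed (7 higher and 2 lower), against 48.2% of all genes, and the median log2 change of the members was 2.02, against 0 for all genes. From 144 to 168 h limma called 0 of 10 members, against 9.87% of all genes, with 2 members at an unadjusted p under 0.05 and 0 called by the fit with trend and robust variance.

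**Figure D1:**
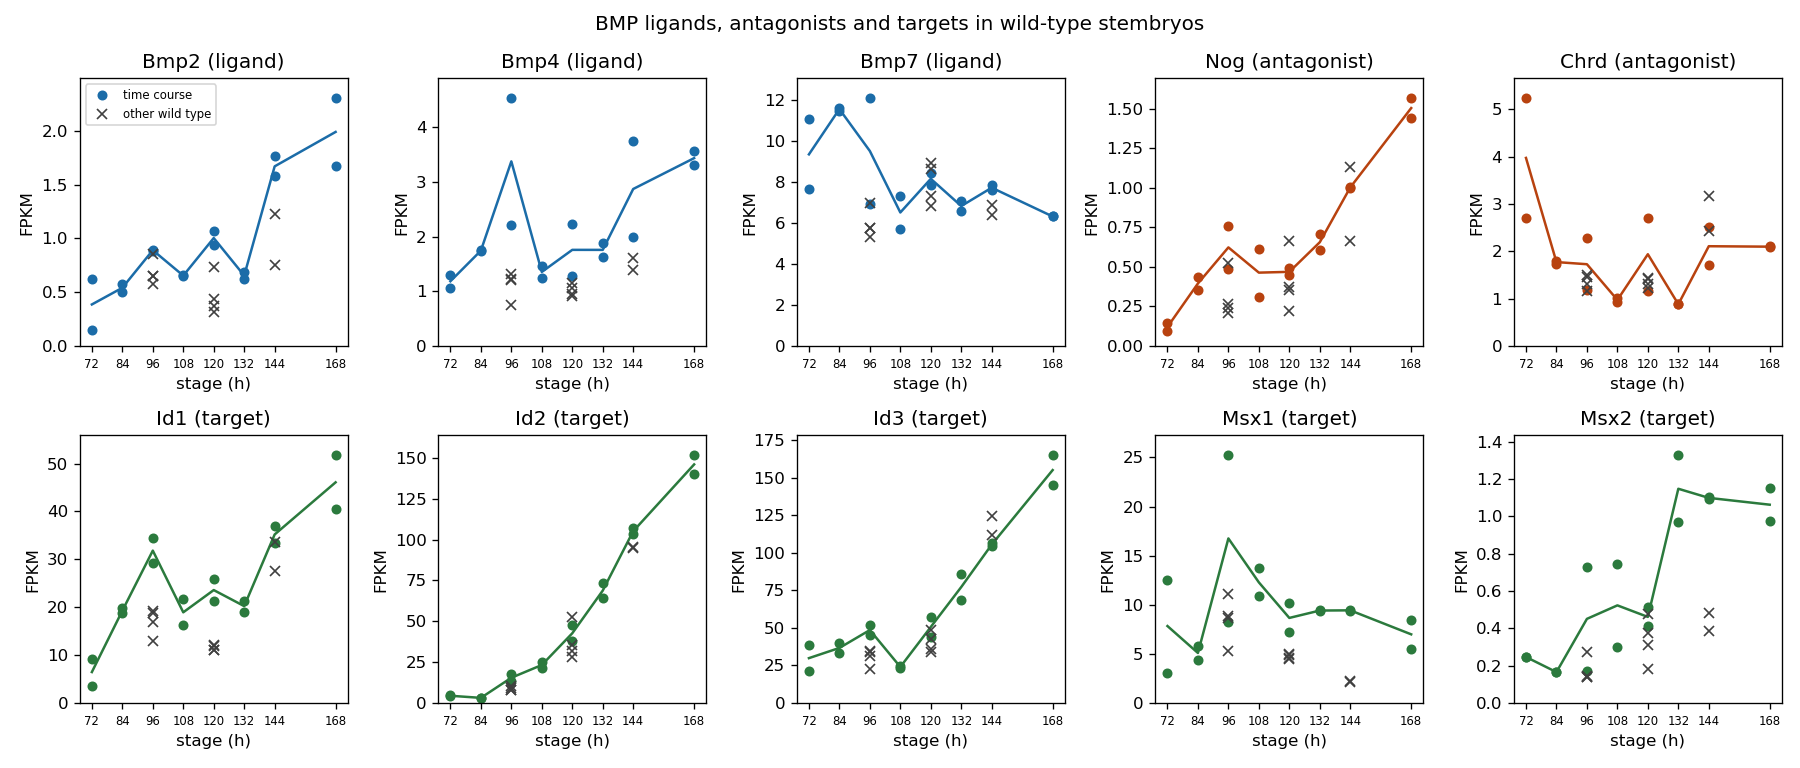
FPKM of the 10 members against stage in hours, on linear axes from 0, in wt stembryos. Dots are the time-course libraries (2 per stage) with a line through their means, and crosses are the wt libraries outside the time course. Id2 climbs to a mean of 146 FPKM at 168 h from its low of 3.06 at 84 h, Id3 dips to 23.9 FPKM at 108 h, and Msx1 at 144 h is at 9.43 FPKM in the time course but at 2.21 FPKM in the other wt libraries.

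Bmp7, a ligand that acts in kidney, eye and skeletal development, was the most abundant of the 3 ligands in all 61 libraries, with 53.0 to 88.9% of their summed FPKM. In the time course it stood at 11.1 and 7.64 FPKM at 72 h, 11.5 and 11.6 at 84 h, 6.94 and 12.1 at 96 h, 5.71 and 7.32 at 108 h, 7.88 and 8.45 at 120 h, 7.07 and 6.59 at 132 h, 7.83 and 7.62 at 144 h and 6.32 in both libraries at 168 h. It fell by 0.50 on the log2 scale from 96 to 108 h (SE 0.16, limma adjusted p = 0.0379), where 5 of 10 members passed against 9.45% of all genes. The 96 and 108 h libraries overlapped, and the fall from 72 to 168 h (0.53) missed the threshold without replicate 1 (-0.27, adjusted p = 0.171). For the 96 to 108 h step, the fall was 0.28 without replicate 2, which left 1 library a stage. With the other wt libraries joined to the time course, the change at this step was -0.08 and no longer passed.

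Bmp4, a ligand of the primitive streak, the allantois and the dorsal neural tube, was at 1.06 and 1.30 FPKM at 72 h, 1.76 and 1.73 at 84 h, 2.22 and 4.53 at 96 h, 1.24 and 1.47 at 108 h, 2.24 and 1.28 at 120 h, 1.63 and 1.88 at 132 h, 1.98 and 3.76 at 144 h and 3.30 and 3.57 at 168 h. It rose by 0.83 from 84 to 96 h (SE 0.27, limma adjusted p = 0.0216) and fell by 1.18 from 96 to 108 h (SE 0.27, adjusted p = 0.00304). Replicate 2 at 96 h stood above the 5 other libraries of these 3 stages. Without replicate 2 at every stage, which left 1 library a stage, the changes were 0.32 (adjusted p = 0.668) and -0.80 (adjusted p = 0.183), and with the other wt libraries joined to the time course the first turned to -0.13.

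Bmp2, a ligand close in sequence to Bmp4, was the least abundant ligand at every stage. Its libraries read 0.622 and 0.149 FPKM at 72 h, 0.505 and 0.577 at 84 h, 0.895 and 0.887 at 96 h, 0.661 and 0.647 at 108 h, 1.07 and 0.940 at 120 h, 0.624 and 0.685 at 132 h, 1.58 and 1.76 at 144 h and 2.31 and 1.68 at 168 h. The step from 132 to 144 h was the 1 it passed, with a log2 change of 1.23 (SE 0.29, limma adjusted p = 0.00908), and there 3 of 10 members passed against 5.42% of all genes. With 1 library per stage left out it stayed at 1.25 and 1.21 but lost the call (adjusted p = 0.0587 and 0.0722). Over the whole course Bmp2 rose 4.88-fold (limma adjusted p = 3.02e-08) and Bmp4 2.77-fold (adjusted p = 1.51e-05), while Bmp7 fell by 0.53 on the log2 scale (adjusted p = 0.00431), so that the Bmp7 share of the 3 ligands went from 85.4% ± 1.96 (SD, n = 2) at 72 h to 53.8% ± 1.16 at 168 h.

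From 72 to 168 h the antagonists moved in opposite directions, Nog up and Chrd down, though both stage means rose from 132 to 144 h. Nog was at 0.0926 and 0.147 FPKM at 72 h, 0.436 and 0.353 at 84 h, 0.489 and 0.758 at 96 h, 0.311 and 0.616 at 108 h, 0.446 and 0.491 at 120 h, 0.604 and 0.708 at 132 h, 1.01 and 0.998 at 144 h and 1.44 and 1.57 at 168 h. It rose 7.35-fold from 72 to 168 h (log2 change 2.88, SE 0.31, limma adjusted p = 1.11e-09) on the log2(FPKM + 0.1) scale, which understates changes of low genes. Its first step, 1.18 from 72 to 84 h (adjusted p = 0.00723), was lost with a pseudocount of 1 FPKM (adjusted p = 0.0723) and without replicate 1 (adjusted p = 0.329). Nog is covered by few fragments, from 3.0 to 64.0 per library by the inferred depth, and 1 library was at or under 3 fragments.

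Chrd was highest at the start, at 5.24 and 2.71 FPKM at 72 h, and then at 1.80 and 1.74 at 84 h, 1.17 and 2.28 at 96 h, 0.928 and 1.01 at 108 h, 2.71 and 1.16 at 120 h, 0.882 and 0.880 at 132 h, 2.51 and 1.70 at 144 h and 2.08 and 2.11 at 168 h. It fell by 1.05 from 72 to 84 h (SE 0.29, limma adjusted p = 0.00903), where 3 of 10 members passed against 16.3% of all genes, and rose by 1.15 from 132 to 144 h (SE 0.29, adjusted p = 0.0138). Neither passed without replicate 1 (-0.61 and 0.88, adjusted p = 0.281 and 0.148), nor did the fall of 0.82 from 72 to 168 h (adjusted p = 0.0178) without it (-0.35, adjusted p = 0.434). The Chrd to Nog ratio of FPKM was 18.4 and 56.6 in the 72 h libraries and 1.35 and 1.44 at 168 h, and Chrd exceeded Nog in all 61 libraries.

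At 96 and 120 h of the time course, Chrd differed between replicates together with markers of endoderm and notochord. At 96 h the replicates with 1.17 and 2.28 FPKM of Chrd had 129 and 615 summed FPKM of the 7 endoderm markers, and at 120 h those with 2.71 and 1.16 FPKM of Chrd had 243 and 44.6. The 4 notochord markers (Noto, Shh, Foxa2 and Foxj1) summed to 1.96 and 7.54 FPKM at 96 h and to 8.10 and 1.38 FPKM at 120 h, so both lists were higher in the library with more Chrd. In pooled stembryos fewer cells of a type and less RNA per cell cannot be told apart, and the part of these cells in the Chrd values was not tested.

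**Figure D2:**
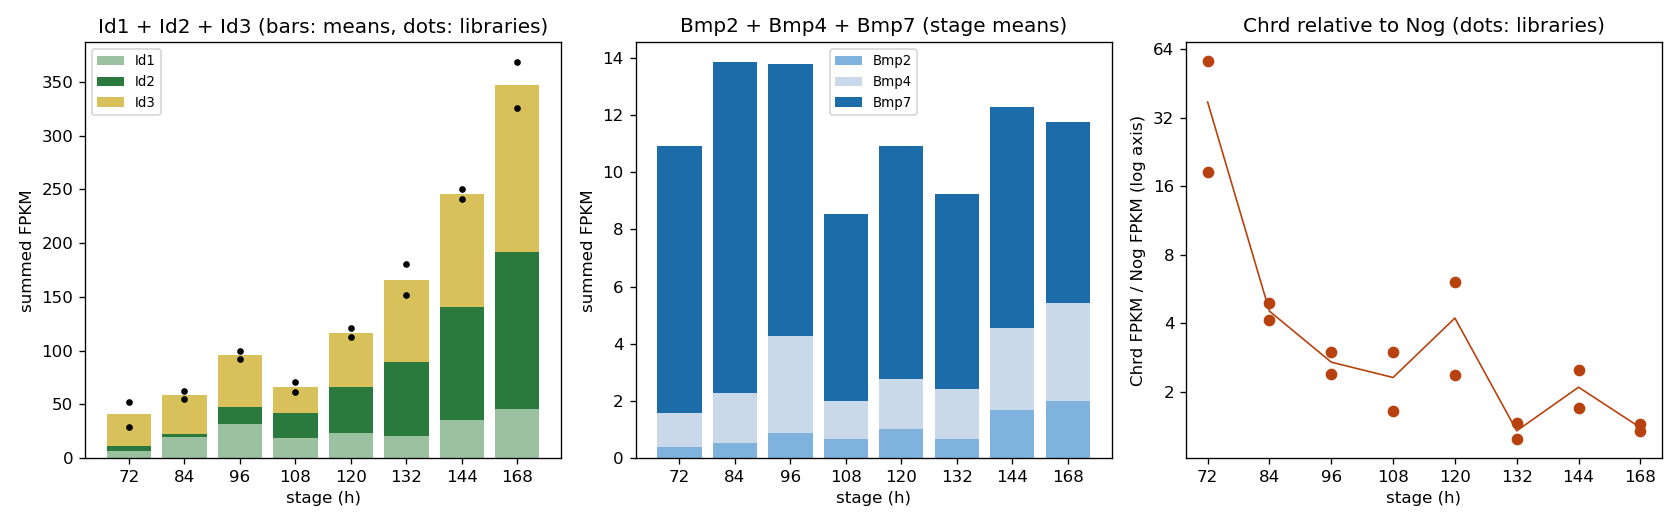
Left, summed FPKM of Id1, Id2 and Id3 against stage in hours in the wt time course (stacked bars are stage means, dots the 2 libraries); middle, the same for the 3 ligands; right, Chrd FPKM divided by Nog FPKM per library on a log axis. The Id sum starts at 40.6 FPKM (72 h) and ends at 347 FPKM (168 h), the ligand bars stay dominated by Bmp7, and the mean ratio falls from 37.5 at 72 h to 1.40 at 168 h.

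Id2 showed the largest change of the members. Its libraries read 4.72 and 3.99 FPKM at 72 h, 3.12 and 3.01 at 84 h, 13.3 and 17.5 at 96 h, 21.4 and 25 at 108 h, 37.7 and 47.5 at 120 h, 73.5 and 64.0 at 132 h, 103 and 107 at 144 h and 140 and 152 at 168 h. From 84 h on, no 2 neighbouring stages overlapped. The steps from 84 to 96 h (log2 change 2.28, SE 0.19, limma adjusted p = 4.88e-11), 96 to 108 h (0.60, adjusted p = 0.0463), 108 to 120 h (0.87, adjusted p = 0.00391) and 120 to 132 h (0.69, adjusted p = 0.0463) passed. At these steps 4, 5, 2 and 1 members passed, against 20.7%, 9.45%, 7.06% and 2.46% of all genes. Over the whole course Id2 rose 32.9-fold (log2 change 5.04, SE 0.19, adjusted p = 1.91e-21). Of the 4 steps, the first kept its call with either replicate left out. With replicate 1 and then replicate 2 left out, the step from 96 to 108 h stayed at 0.51 and 0.68 (adjusted p = 0.345 and 0.280) and that from 108 to 120 h at 0.93 and 0.81 (adjusted p = 0.124 and 0.0905). The last was 0.43 without replicate 1 (adjusted p = 1.00). Each of these fits had 1 library a stage.

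Id3 did not rise steadily. It was at 38.4 and 21.2 FPKM at 72 h, 40.0 and 33.2 at 84 h, 51.6 and 45.4 at 96 h, 23.4 and 24.4 at 108 h, 57.1 and 43.9 at 120 h, 85.9 and 68.4 at 132 h, 104 and 107 at 144 h and 145 and 165 at 168 h. The 108 h libraries lay below all time-course libraries of 96 and 120 h, whereas the wt controls of 96 h ran from 22.9 to 34.9 FPKM. The fall to 108 h was 1.01 on the log2 scale (SE 0.20, limma adjusted p = 0.000783) and passed under each alternative run except the fit of the compared groups alone. The return by 120 h was 1.06 (SE 0.20, adjusted p = 0.000692) and missed the threshold without replicate 1 (0.84, adjusted p = 0.0982).

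In the time course Id1 shared the fall at 108 h but rose earliest. It was at 9.27 and 3.61 FPKM at 72 h, 19.7 and 18.8 at 84 h, 34.4 and 29.2 at 96 h, 16.2 and 21.6 at 108 h, 25.9 and 21.2 at 120 h, 21.3 and 19.1 at 132 h, 33.5 and 36.9 at 144 h and 40.4 and 51.7 at 168 h. Its rise from 72 to 84 h, 3.28-fold (log2 change 1.71, SE 0.24, limma adjusted p = 2.02e-06), was kept under each alternative run except the fit of the compared groups alone. The steps to 96 h (0.72, adjusted p = 0.0326), 108 h (-0.76, adjusted p = 0.0441) and 144 h (0.80, adjusted p = 0.0475) each lost the call without replicate 1 (0.63, -0.43 and 0.95, adjusted p = 0.117, 0.407 and 0.0569). With the other wt libraries joined to the time course, the steps to 96 and 108 h were 0.10 and -0.14 and no longer passed. From 72 to 168 h Id1 rose 7.77-fold (limma adjusted p = 1.55e-12) and Id3 5.41-fold (adjusted p = 1.41e-12). The makeup of the Id sum differed between stages, since Id2 was 5.22% ± 0.365 (SD, n = 2) of it at 84 h and 42.1% ± 1.34 at 168 h, and Id1 went from 32.8% ± 1.98 to 13.2% ± 1.17.

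The Msx genes encode homeodomain proteins of the dorsal midline and of mesenchyme. Msx1 was at 12.6 and 3.09 FPKM at 72 h, 5.84 and 4.32 at 84 h, 25.2 and 8.27 at 96 h, 10.9 and 13.7 at 108 h, 7.18 and 10.1 at 120 h, 9.33 and 9.48 at 132 h, 9.51 and 9.34 at 144 h and 5.48 and 8.49 at 168 h. The step from 84 to 96 h was the 1 it passed, with a log2 change of 1.51 (SE 0.39, limma adjusted p = 0.00401), and without replicate 1 it was 0.92 (adjusted p = 0.0588). The replicates of 72 and 96 h differed by more than those of 132 and 144 h. From 72 to 168 h Msx1 had a log2 change of 0.12 and did not pass.

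Msx2 was lower than Msx1 in all 61 libraries. Both 72 h libraries were at 0.246 FPKM, and the later ones at 0.166 and 0.164 at 84 h, 0.173 and 0.728 at 96 h, 0.302 and 0.744 at 108 h, 0.410 and 0.512 at 120 h, 1.33 and 0.969 at 132 h, 1.10 in both at 144 h and 1.15 and 0.973 at 168 h. No single step passed, while the whole course did (log2 change 1.74, SE 0.37, limma adjusted p = 0.000168). All time-course libraries from 132 h on lay above all earlier ones of the time course.

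The genes whose time-course pattern was most like a member's are given as a description, by Pearson's r of log2(FPKM + 0.1) over the 16 libraries, among 10085 genes with at least 5 FPKM at a stage. Points of 1 stage share their culture time, so r says little beyond a shared course. For Id2 they were Nr2f1 (r = 0.988), 6330403K07Rik (0.982) and Cxxc4 (0.981), for Id3 Emid1 (0.956), Pdzph1 (0.948) and Sox21 (0.946), and for Id1 Igfbp4 (0.953), Acaa2 (0.936) and Sox9 (0.933). For Nog they were Serping1 (0.962), Pxylp1 (0.951) and Tubb2b (0.948), and for Chrd Foxa2 (0.893), Rab25 (0.885) and Cldn7 (0.876), with Foxa2 also among the endoderm and notochord markers above. For Bmp2 they were Cfap410 (0.896), Kctd10 (0.895) and Tcim (0.893), for Bmp4 Galnt11 (0.938), Khdrbs3 (0.843) and Trp53i11 (0.843), and for Bmp7 Ltbr (0.881), Shisa5 (0.851) and Lefty2 (0.836). Msx1 had the lowest best match (Arl6ip6, 0.787, then Lrfn4, 0.785, and Shroom4, 0.763), and Msx2 matched Efna2 (0.934), Gm6166 (0.930) and Cnn3 (0.928).

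Of 53 other genes of the pathway, 38 were abundant enough to be tested, and 33 of these passed in at least 1 step, against 42.1% of the 17098 genes tested. They gave 67 calls in 266 tests, 48 higher and 19 lower, with a median log2 change of 0.07. Both tested ligands passed. Bmp3, which opposes other BMPs, was listed at 0 in 3 of the 4 libraries of 72 and 84 h and reached 8.36 and 12.7 FPKM at 120 h, and rose from 96 to 108 h by 3.83 on the log2 scale (SE 0.51, limma adjusted p = 2.98e-06). Bmp5 rose by 1.58 at 96 h (adjusted p = 3.64e-05) and by 1.72 at 120 h (adjusted p = 6.54e-05), to 3.77 and 2.82 FPKM. The other 9 listed ligands were below the filter.

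Among receptors and co-receptors, 9 of 10 tested passed in at least 1 step, with 13 higher and 4 lower calls. Rgma, a co-receptor, went from 4.82 and 8.32 FPKM at 72 h to 38.2 and 32.8 at 84 h (log2 change 2.46, SE 0.17, limma adjusted p = 1.03e-13) and to 76.3 and 69.1 at 168 h. Eng, the endothelial co-receptor endoglin, was at 5.29 and 3.79 FPKM at 72 h and was listed at 0 in 11 of the 12 libraries from 96 h on. Acvrl1, a type I receptor, rose from 0.390 and 0.549 FPKM at 132 h to 1.47 and 2.15 at 144 h (log2 change 1.74, adjusted p = 0.00395). It also passed from 108 h (0.335 and 0.268 FPKM) to 120 h (1.61, adjusted p = 0.00522), where its libraries read 2.40 and 0.50 FPKM, and without replicate 1 that step was 0.70 (adjusted p = 0.629). Of the 5 tested Smads, Smad5 rose from 13.6 ± 1.61 FPKM (SD, n = 2) at 72 h to 30.8 ± 1.03 at 168 h, Smad1 fell by 0.56 at 96 h (adjusted p = 0.00139) and Smad4 rose by 0.31 at 132 h (adjusted p = 0.0423).

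Among the other antagonists, 10 of 11 tested passed in at least 1 step. Fst (follistatin) was at 417 and 399 FPKM at 72 h, 15.6 and 42.6 at 96 h and 4.18 and 5.58 at 168 h, and its fall from 84 to 96 h was 3.20 on the log2 scale (SE 0.32, limma adjusted p = 1.93e-09). Cer1 (cerberus) rose from 0.666 and 1.24 FPKM at 84 h to 66.1 and 187 at 96 h (log2 change 6.78, SE 1.07, adjusted p = 9.98e-06) and was at 0.671 and 0.173 at 168 h. Nbl1 rose by 2.69 at 96 h (adjusted p = 0.000179). Antagonists of this list therefore peaked at different stages, Fst at 72 h, Cer1 at 96 h and Nbl1 at 108 h by stage means.

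All 3 chordin-cleaving proteases of the tolloid family passed. Bmp1 rose at 4 steps, from 3.21 and 2.44 FPKM at 72 h to 19.8 and 20.0 at 144 h, Tll1 fell at 3 steps and rose at 120 h (log2 change 1.30, limma adjusted p = 0.00347), and Tll2 peaked at 96 h with 1.41 and 3.03 FPKM. Of the other targets, 6 of 7 tested passed. Atoh8 rose from 0.365 and 0.257 FPKM at 72 h to 6.34 and 7.78 at 108 h, Tbx2 was highest at 120 h (1.12 and 2.44 FPKM) and fell by 2.15 from 144 to 168 h (adjusted p = 3.36e-06), and Id4 reached 2.89 and 2.79 FPKM at 168 h.

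**Figure D3:**
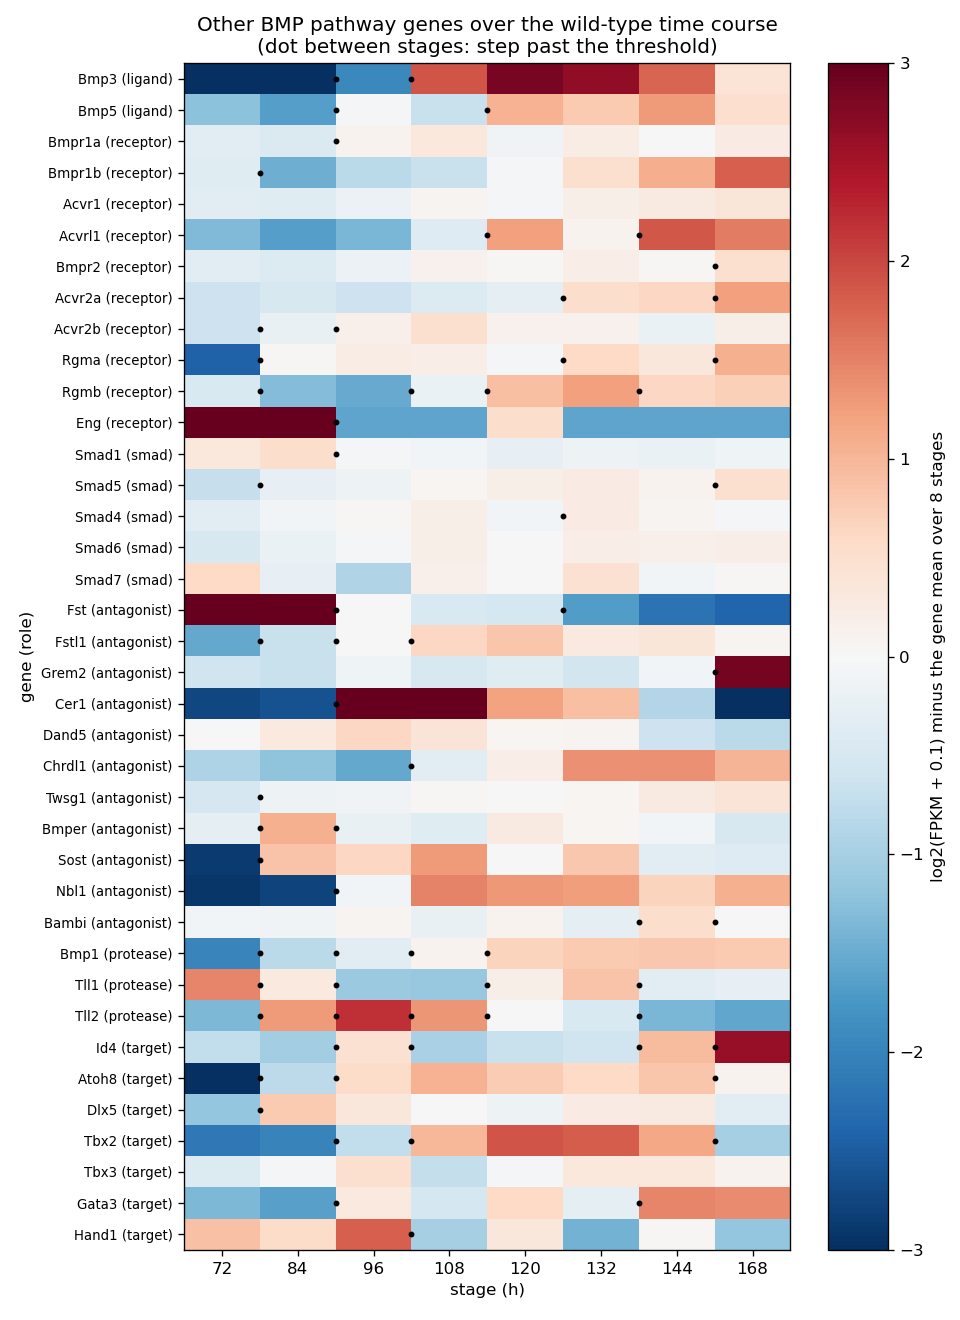
Stage means of log2(FPKM + 0.1) of the 38 other pathway genes tested, minus each gene's mean over the 8 stages (colour), with stage in hours across and genes by role down; a dot between 2 stages marks a step with adjusted p under 0.05. Fst and Eng start high, Cer1 peaks at 96 and 108 h, and Bmp3, Bmp1 and Tbx2 are higher in the middle and late stages than at 72 h.

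The wt controls outside the time course gave a second measure of the change from 96 to 120 h, with 4 libraries at each stage. Here 5 of 10 members passed, 3 higher and 2 lower, against 27.1% of all genes, and the members' median log2 change was 0.14, against 0.03 for all genes. Same-numbered libraries deviated together, and with the replicate number as a block Bmp2 (log2 change -0.51, limma adjusted p = 0.0491 against 0.0644) and Msx2 (0.65, adjusted p = 0.0416 against 0.0669) passed too, against 34.6% of all genes.

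Id2 was at 9.22, 10.4, 7.77 and 7.64 FPKM at 96 h and at 31.9, 35.4, 28.2 and 52.8 at 120 h, with no overlap, and rose 4.11-fold (log2 change 2.04, SE 0.14, limma adjusted p = 3.33e-14). In the time course the same change of Id2 was 1.47 (SE 0.19, adjusted p = 6.60e-07), and 2 of 10 members passed there, Id2 and Bmp4 (-0.87, SE 0.27, adjusted p = 0.0207), against 15.1% of all genes. Without replicate 2 the Bmp4 change was 0.011. Id1 fell from 18.8, 19.1, 16.9 and 12.9 FPKM to 11.8, 11.1, 12.1 and 11 (log2 change -0.54, SE 0.17, adjusted p = 0.0173), and Msx1 from 8.88, 11.1, 8.63 and 5.33 FPKM to 4.93, 4.46, 4.92 and 4.53 (-0.79, SE 0.27, adjusted p = 0.0285). Bmp7 (0.41, SE 0.11, adjusted p = 0.00463) and Id3 (0.40, SE 0.14, adjusted p = 0.0329) rose, each with overlapping groups.

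Apart from Id2, each of these calls was lost when 1 or another replicate number was left out at both stages. Without replicate 1 and without replicate 2 in turn, Bmp7 (0.34 and 0.35, limma adjusted p = 0.0632 and 0.0537), Id1 (-0.49 and -0.46, adjusted p = 0.0877 and 0.118) and Msx1 (-0.77 and -0.62, adjusted p = 0.0999 and 0.196) missed the threshold. Msx1 also missed it without replicate 3 (-0.79, adjusted p = 0.0761), and Id3 without replicate 3 (0.38, adjusted p = 0.103) and without replicate 4 (0.17, adjusted p = 0.44). Endoderm markers in the 4 controls at 120 h summed to 23.6, 23.0, 203 and 69.3 FPKM. In the same libraries Nog was 0.219, 0.375, 0.663 and 0.356 FPKM, while Chrd ran only from 1.22 to 1.44 FPKM.

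At 144 h the wt controls and the time course differed in Msx1, at 2.18 and 2.25 FPKM against 9.51 and 9.34, and in Msx2, at 0.481 and 0.385 against 1.10 in both. Id1, Id2 and Id3 lay within 27.5 to 36.9, 94.8 to 107 and 104 to 125 FPKM in all 4 libraries. By the expression of 1000 genes, the wt controls of 144 h lay at 157 and 158 h of the time course. These values were not compared by a test.

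Over the 17 mutant comparisons, 36 of 170 member tests passed, 27 higher and 9 lower, against 12.1% of all gene tests. With controls of the same library set, 19 passed, against 6.24%, and 15 calls were shared by both. All mutants of a stage share their controls, so calls in different mutants are not independent. With mutant replicate 1 left out 6 calls passed, and with replicate 2 left out 5. These fits leave 1 library in every mutant group but Del(sub-TAD1) at 96 h, which keeps 2, and assume that the lone library varies like the other groups, so the losses say little about the single calls. By limma, Del(CBS2) had 0 calls at 96 h (0.298% of all genes) and 0 at 120 h (0.193%), with 6 and 0 members at an unadjusted p under 0.05, and Del(CBS4) had 0 at 144 h (2.05%), with 0 at that unadjusted p. The limma fit with trend and robust variance also gave 0 in all 3. The size of a mutant effect differed between stages for 8 of 100 member tests, against 5.02% of all gene tests. There were 3 in Del(sub-TAD1) (23.6% of all genes), 1 in each of the 3 contrasts of Del(CBS1-5) (0.257% for 120 against 96 h, 10.3% for 144 against 96 h and 7.07% for 144 against 120 h), 1 in Del(CBS4) (8.27%) and 1 in Ins(2xCBS-d4d8) (0.392%).

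**Figure D4:**
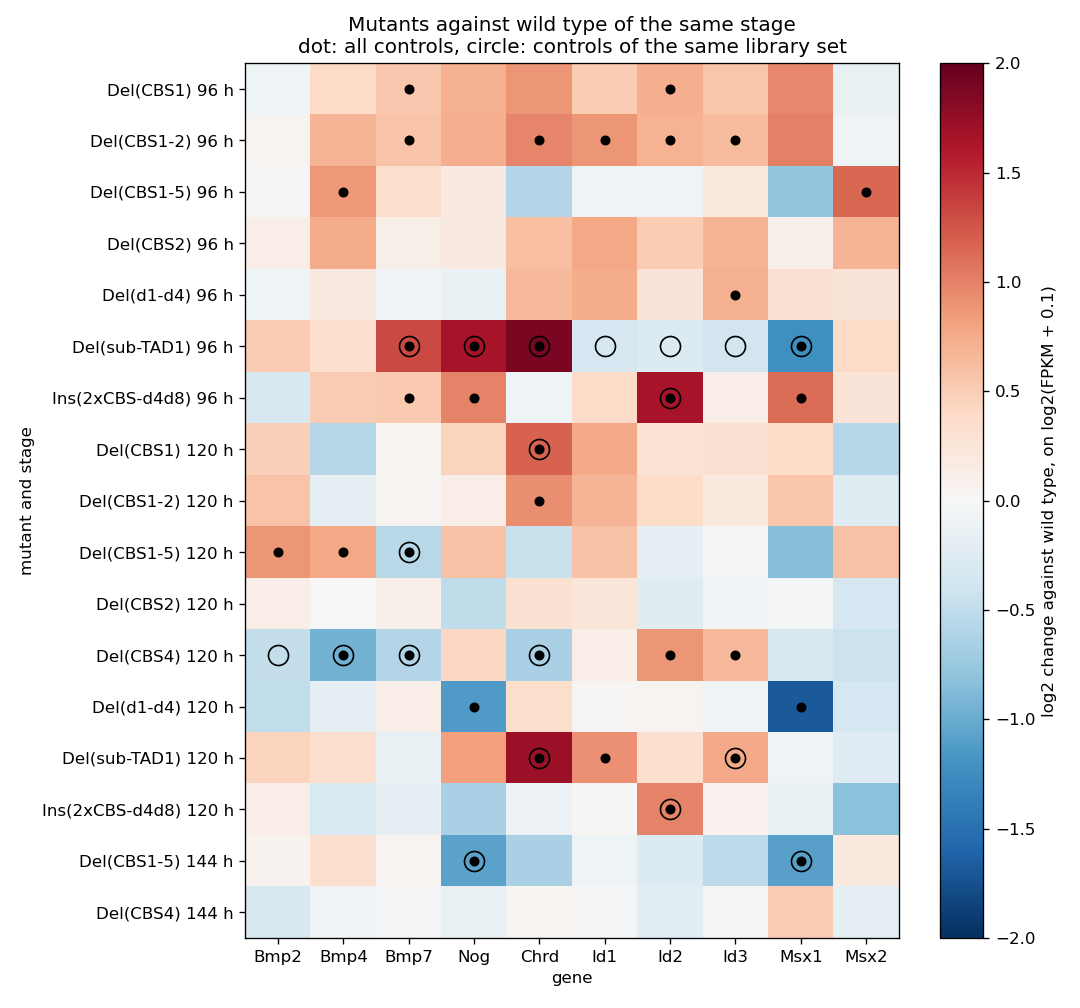
Log2 change of each member (columns) in each mutant and stage (rows) against wt of that stage, on log2(FPKM + 0.1), from -2 (blue) to 2 (red). Dots mark adjusted p under 0.05 with all controls outside the time course and circles the same with controls of the library set of the mutant. Both marks coincide for Bmp7, Nog, Chrd and Msx1 in Del(sub-TAD1) at 96 h, and for Id2 in Ins(2xCBS-d4d8) at 96 and 120 h.

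In Del(sub-TAD1) at 96 h Chrd, Nog and Bmp7 were higher and Msx1 was lower. Chrd was at 6.58, 5.31 and 4.16 FPKM, against 1.45, 1.5, 1.30 and 1.17 in the wt controls, and was 3.70-fold higher (log2 change 1.89, SE 0.22, limma adjusted p = 9.66e-08; with controls of the same set 1.78, adjusted p = 4.32e-06). Nog was at 1.33, 1.27 and 0.858 FPKM against 0.237, 0.266, 0.524 and 0.210 (1.65, SE 0.24, adjusted p = 5.13e-06), and Bmp7 at 15, 15.7 and 13.9 FPKM against 5.78, 5.76, 6.96 and 5.31 (1.31, SE 0.12, adjusted p = 3.51e-10). Msx1 was lower, at 4.0, 3.06 and 3.31 FPKM against 8.88, 11.1, 8.63 and 5.33 (-1.23, SE 0.30, adjusted p = 0.0014). For none of these 4 members did the mutant and control libraries overlap. The share of all genes without overlap was not counted, in this or the other comparisons.

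In this condition 4 of 10 members passed, against 40.0% of all genes, and with controls of the same set 7 passed, against 14.1%. The members added by the second comparison were Id1, Id2 and Id3, at -0.83, -0.74 and -0.69 (limma adjusted p = 0.0337, 0.00335 and 0.0118), where the time-course libraries at 96 h had higher Id levels than the other controls. The 3 Del(sub-TAD1) libraries had 353 to 586 summed FPKM of endoderm markers against 83.1 to 182 in the wt controls, and 18.3 to 29.8 of notochord markers against 1.21 to 3.0. By overall expression they lay at 91 to 92 h of the time course and the controls at 92 to 101 h. At 91 to 92 h the time course, interpolated between stages, had 1.74 to 1.75 FPKM of Chrd and 10.2 to 10.4 of Bmp7. The time-course libraries of 96 h themselves ran from 6.94 to 12.1 FPKM of Bmp7. The part of the marker levels or of the position in the member values was not tested.

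At 120 h Del(sub-TAD1) kept high Chrd, at 5.51 and 3.90 FPKM against 1.41, 1.31, 1.44 and 1.22 in the controls (log2 change 1.72, SE 0.25, limma adjusted p = 1.94e-05). Id1 (23.6 and 20.2 FPKM; 0.92, adjusted p = 0.00553) and Id3 (70.2 and 64.6 FPKM; 0.75, adjusted p = 0.00546) were higher, and with controls of the same set Id1 missed the threshold (adjusted p = 0.0642). Here 3 of 10 members passed against 6.15% of all genes. Bmp7, at 7.21 and 6.98 FPKM, lay within the controls, and the Bmp7 effect at 120 h differed from that at 96 h by -1.46 (SE 0.18, adjusted p = 1.30e-06). The same difference was 1.26 for Id1 (SE 0.28, adjusted p = 0.00376) and 1.13 for Id3 (SE 0.23, adjusted p = 0.00221), and all 3 passed with controls of the same set. The notochord markers summed to 13.4 and 7.98 FPKM against 0.449 to 1.94 in the controls.

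Ins(2xCBS-d4d8) stood out by Id2. At 96 h Id2 was at 29.9 and 25.4 FPKM, against 7.64 to 10.4 in the controls and 13.3 and 17.5 in the time course, a 3.14-fold difference (log2 change 1.65, SE 0.17, limma adjusted p = 1.25e-08; same set 1.18, adjusted p = 0.000225). At 120 h it was at 66.5 and 77.6 FPKM, against 28.2 to 52.8 (0.99, SE 0.17, adjusted p = 0.000108; same set 0.65, adjusted p = 0.0456). The Id2 groups did not overlap at either stage, and Ins(2xCBS-d4d8) had the highest Id2 mean of the mutants at both. Its share of the Id sum was 33.5% ± 2.53 (SD, n = 2) at 96 h, against 15.7% ± 1.57 (n = 4) in the controls.

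Bmp7 (0.52, limma adjusted p = 0.00501), Nog (0.99, adjusted p = 0.00719) and Msx1 (18.6 and 17.3 FPKM; 1.12, adjusted p = 0.0121) were also higher in Ins(2xCBS-d4d8) at 96 h, but none of the 3 passed with controls of the same set (adjusted p = 0.642, 0.308 and 0.348). That made 4 of 10 members against 27.9% of all genes at 96 h, and 1 of 10 against 26.9% at 120 h. The Nog effect at 120 h differed from that at 96 h by -1.63 (SE 0.39, adjusted p = 0.0459), a call lost with controls of the same set (adjusted p = 0.274).

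In Del(CBS4) at 120 h the ligands were low. Bmp4 was at 0.563 and 0.397 FPKM against 0.912, 0.949, 1.15 and 1.05 (log2 change -0.95, SE 0.23, limma adjusted p = 0.00184; same set -1.43, adjusted p = 0.00684), the lowest Bmp4 mean of the mutants at that stage. Bmp7 was at 5.66 and 4.84 FPKM against 6.84 to 8.92 (-0.58, SE 0.14, adjusted p = 0.00135; same set -0.58, adjusted p = 0.0213). Bmp2, at 0.382 and 0.219 FPKM, passed only with controls of the same set (-1.03, adjusted p = 0.0368). Chrd was at 0.855 and 0.778 FPKM against 1.22 to 1.44 (-0.65, SE 0.25, adjusted p = 0.0379), a call lost when any of the wt replicates 1, 2 or 3 was left out (adjusted p = 0.0702, 0.0568 and 0.0791).

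Id2 (60.9 and 72.5 FPKM; 0.88, limma adjusted p = 0.00019) and Id3 (52.1 and 74.8 FPKM; 0.65, adjusted p = 0.00398) were higher in Del(CBS4) at 120 h, and neither passed with controls of the same set (adjusted p = 0.0592 and 0.333). In all, 5 of 10 members passed against 37.5% of all genes, and 4 with same-set controls against 12.4%. The endoderm markers summed to 7.36 and 5.78 FPKM against 23.0 to 203 in the controls, and the 6 spinal cord markers to 95.8 and 145 FPKM against 17.3 to 43.1. Their part in these changes was not tested. At 144 h no member passed and the Id2 effect differed from that at 120 h by -1.09 (SE 0.26, limma adjusted p = 0.006), which same-set controls did not keep (adjusted p = 0.0911). By the expression of 1000 genes, the Del(CBS4) libraries of 144 h lay at 127 and 136 h of the time course and their controls at 157 and 158 h. At 120 h they lay at 114 and 128 h and the controls at 125 to 126 h. The part of position in these results was not tested.

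Del(CBS1-5) was measured at 3 stages. Bmp4 was higher at 96 h (2.51 and 1.75 FPKM; log2 change 0.87, SE 0.23, limma adjusted p = 0.00845) and at 120 h (1.82 and 1.76 FPKM; 0.77, SE 0.23, adjusted p = 0.0227), the highest mutant means of those stages, and neither call held with controls of the same set (adjusted p = 0.226 and 0.194). Msx2 was higher at 96 h (0.350 and 0.684 FPKM; 1.14, adjusted p = 0.0142) and Bmp2 at 120 h (0.791 and 1.03 FPKM; 0.88, adjusted p = 0.0183), with the same outcome (adjusted p = 0.0709 and 0.174). Bmp7 at 120 h was lower in both comparisons, at 5.01 and 5.65 FPKM (-0.56, adjusted p = 0.00549; same set -0.59, adjusted p = 0.0274), and its effect differed from that at 96 h by -0.91 (SE 0.19, adjusted p = 0.0233; same set -0.89, adjusted p = 0.188). Without wt replicate 1 the calls of Bmp2 (0.81, adjusted p = 0.0505) and Bmp4 (0.72, adjusted p = 0.0626) at 120 h were lost. Pluripotency markers summed to 246 and 254 FPKM at 96 h, against 32.1 to 119 in the controls, and to 156 and 177 FPKM at 120 h, against 9.60 to 95.6, and their part in these values was not tested. These were 2 of 10 members at 96 h against 14.8% of all genes, and 3 of 10 at 120 h against 13.3%.

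At 144 h Del(CBS1-5) had 0.345 and 0.382 FPKM of Nog against 1.13 and 0.667 (log2 change -1.07, SE 0.31, limma adjusted p = 0.0108; same set -1.16, adjusted p = 0.00304) and 1.10 and 0.880 FPKM of Msx1 against 2.18 and 2.25 (-1.09, SE 0.39, adjusted p = 0.0369; same set -2.11, adjusted p = 0.000751). These were 2 of 10 members against 23.7% of all genes. The Nog effect at 144 h differed from that at 120 h by -1.66 (SE 0.42, adjusted p = 0.0109) and from that at 96 h by -1.25 (SE 0.42, adjusted p = 0.0489). Without wt replicate 1, the library with 1.13 FPKM of Nog, the Nog difference at 144 h was -0.73 (adjusted p = 0.184) and the differences between stages -1.12 and -0.84 (adjusted p = 0.169 and 0.312), and Msx1 missed the threshold with either control left out (-1.12 and -1.07, adjusted p = 0.134 and 0.143). The 7 pluripotency markers had a mean sum of 302 FPKM in these libraries and 5.37 in the controls, and the libraries lay at 137 and 138 h of the time course by overall expression. Their part in these values was not tested.

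Del(d1-d4) had the lowest Msx1 and Nog of the mutants at 120 h. Msx1 was at 1.69 and 1.14 FPKM against 4.93, 4.46, 4.92 and 4.53, 3.22-fold lower (log2 change -1.69, SE 0.34, limma adjusted p = 0.00452), and Nog at 0.147 and 0.0946 FPKM against 0.219 to 0.663 (-1.13, SE 0.27, adjusted p = 0.0213). Neither group overlapped its controls. The endoderm markers summed to 19.3 and 15.7 FPKM in these libraries, below the 23.0 to 203 of the controls, and their part in the difference was not tested. The changes were as large with same-set controls (-1.70 and -1.15) without passing (limma adjusted p = 0.127 and 0.0884). The spread in that fit also came from the joined set 2 controls described above. Nog missed the threshold with a pseudocount of 1 FPKM (adjusted p = 0.138). At 96 h Id3 was higher (46.5 and 53.0 FPKM; 0.71, adjusted p = 0.0298), a call lost without wt replicate 3 (0.73, adjusted p = 0.0511) and without replicate 4 (0.58, adjusted p = 0.0928). These were 1 of 10 members at 96 h against 1.19% of all genes and 2 of 10 at 120 h against 1.85%.

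Del(CBS1) and Del(CBS1-2), which share the CBS1 deletion, had higher Chrd at 120 h. It was at 3.13 and 3.19 FPKM in Del(CBS1) (log2 change 1.18, SE 0.25, limma adjusted p = 0.00663; same set 1.13, adjusted p = 0.0271) and at 2.59 and 2.72 FPKM in Del(CBS1-2) (0.94, SE 0.25, adjusted p = 0.0383; same set 0.89, adjusted p = 0.157), above the 1.22 to 1.44 FPKM of the controls. The endoderm markers summed to 144 and 154 FPKM and to 102 and 110 FPKM there, within the 23.0 to 203 of the controls, and the notochord markers to 5.62 and 7.32 and to 4.04 and 3.97, above their 0.449 to 1.94. The time-course libraries of 120 h had 1.16 and 2.71 FPKM of Chrd. Chrd was the 1 member of 10 called in each, against 2.1% and 2.35% of all genes.

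At 96 h Del(CBS1-2) had 5 of 10 members called, all higher, namely Chrd, Bmp7, Id1, Id2 and Id3 (log2 changes 0.97, 0.57, 0.88, 0.69 and 0.63), against 4.49% of all genes, and Del(CBS1) had 2, both higher, Bmp7 (0.54) and Id2 (0.72), against 1.23%. The limma adjusted p-values were 0.0212, 0.0119, 0.013, 0.0141 and 0.0326 in Del(CBS1-2) and 0.0371 and 0.0224 in Del(CBS1). Bmp7 was at 9.0 and 8.65 FPKM in Del(CBS1-2) and at 8.69 and 8.62 FPKM in Del(CBS1), above the 5.31 to 6.96 FPKM of the controls. Id2 was at 14.1 and 14.2 FPKM and at 14.9 and 13.9 FPKM, above their 7.64 to 10.4. The time-course libraries of 96 h reached these levels, with 6.94 and 12.1 FPKM of Bmp7 and 13.3 and 17.5 FPKM of Id2. Id1 in Del(CBS1-2) was at 35.1 and 27.2 FPKM, the highest mutant mean at 96 h, against 12.9 to 19.1 in the controls and 34.4 and 29.2 in the time course. With same-set controls none of these 7 passed (limma adjusted p from 0.116 to 0.374), with changes of 0.49 to 0.90. The median log2 change of the 10 members was 0.69 in Del(CBS1-2) and 0.55 in Del(CBS1) at 96 h, against 0 for all genes in both.

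**Figure D5:**
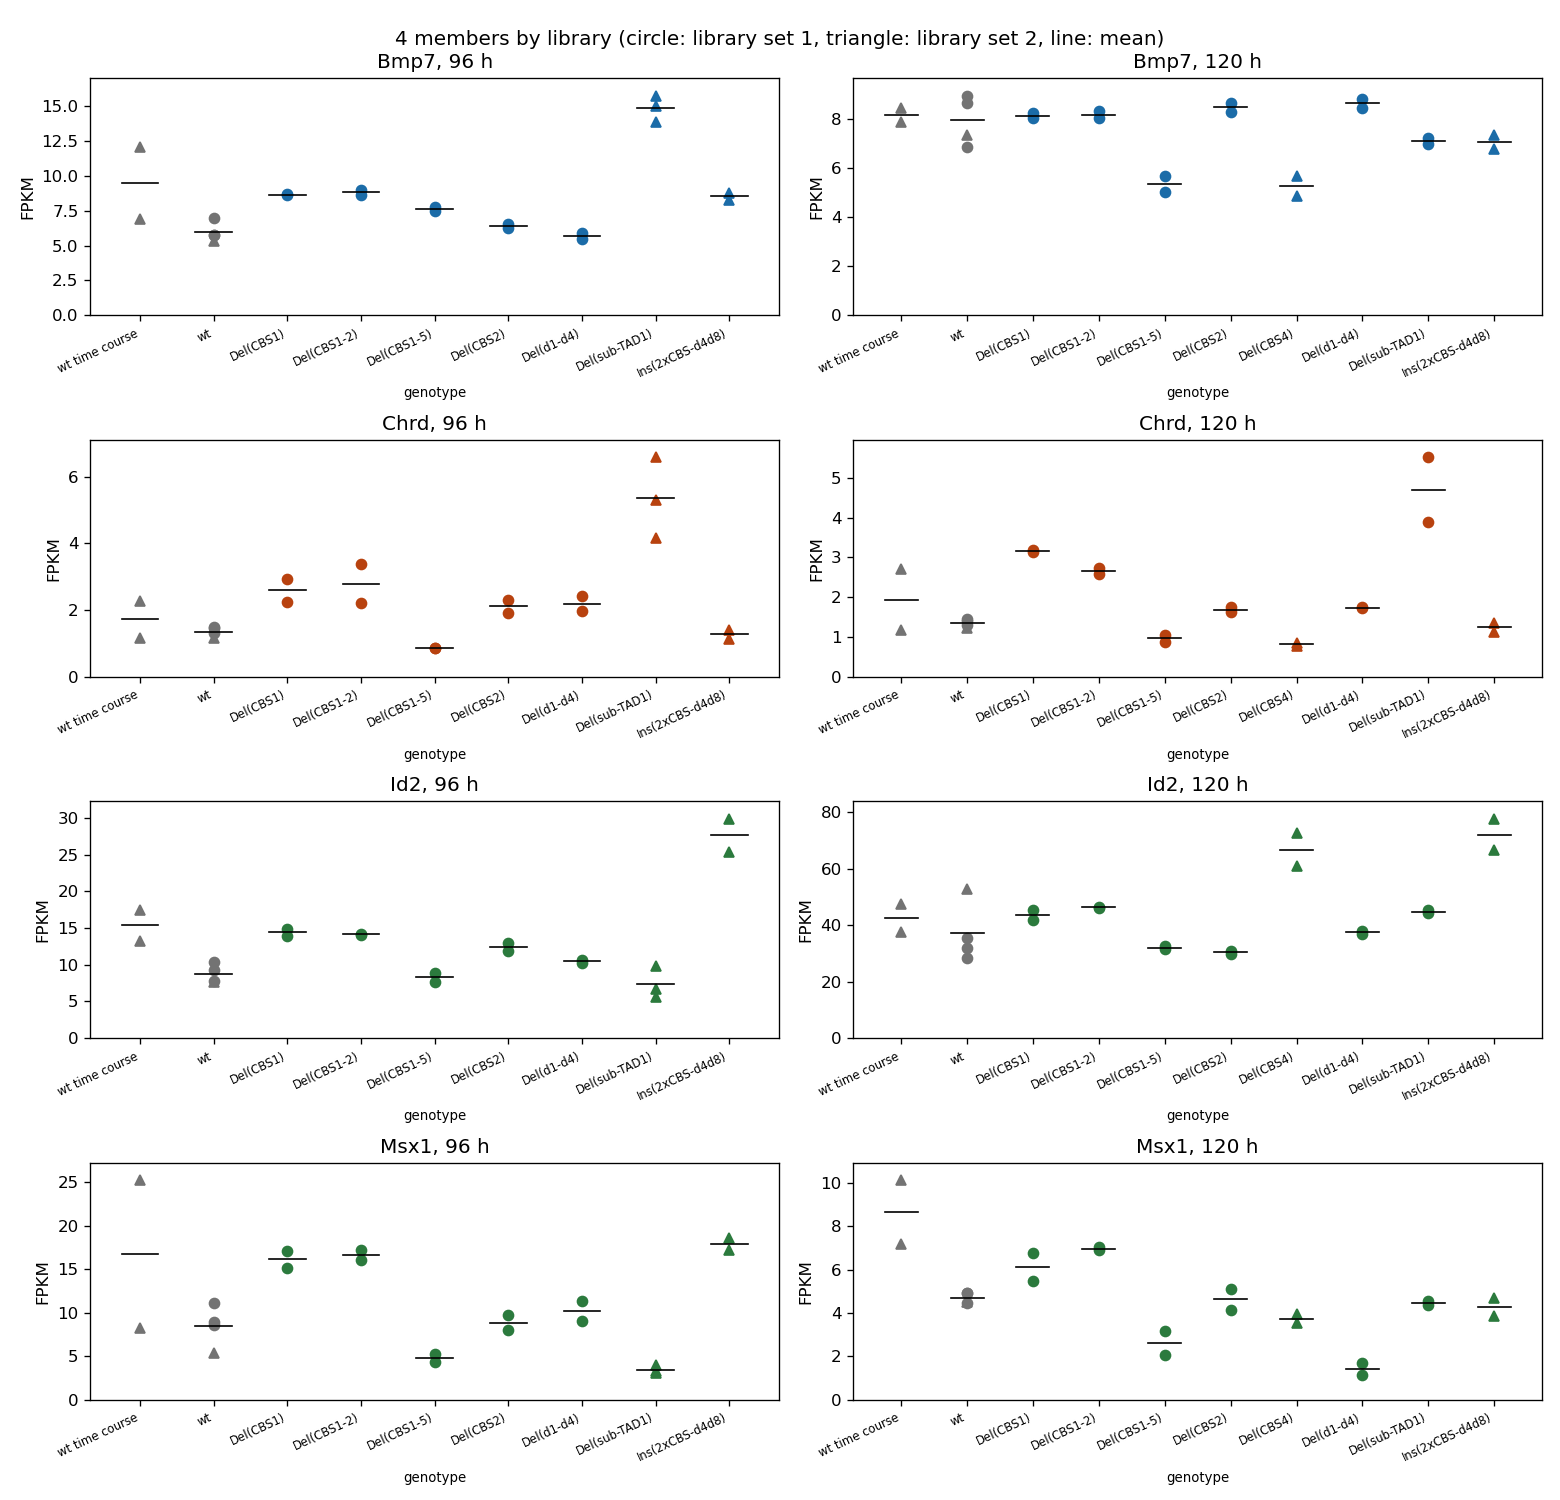
FPKM of Bmp7, Chrd, Id2 and Msx1 in every library at 96 h (left) and 120 h (right), by genotype, on linear axes from 0. Circles are libraries of set 1, triangles of set 2, and lines means; grey marks wt. Chrd and Bmp7 in Del(sub-TAD1) at 96 h, Id2 in Ins(2xCBS-d4d8) at both stages and Msx1 in Del(d1-d4) at 120 h lie outside the wt points.

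The mutants with the highest and lowest means of each member differed between stages. Bmp2 ran at 96 h from 0.529 FPKM in Ins(2xCBS-d4d8) to 1.01 in Del(sub-TAD1), and at 120 h from 0.288 in Del(d1-d4) to 0.909 in Del(CBS1-5). Bmp4 ran from 1.26 in Del(d1-d4) to 2.13 in Del(CBS1-5) at 96 h, and from 0.480 in Del(CBS4) to 1.79 in Del(CBS1-5) at 120 h. Bmp7 was highest in Del(sub-TAD1) at 96 h (14.9) and lowest in Del(d1-d4) (5.70), which at 120 h was the highest (8.62), above Del(CBS4) (5.25).

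Del(sub-TAD1) had the highest Nog (1.15 FPKM at 96 h and 0.747 at 120 h) and the highest Chrd (5.35 and 4.71), while the lowest Nog was in Del(d1-d4) (0.268 and 0.121) and the lowest Chrd in Del(CBS1-5) at 96 h (0.865) and Del(CBS4) at 120 h (0.817). Del(sub-TAD1) at 96 h was also the lowest in Id1 (13.3), Id2 (7.39), Id3 (23.4) and Msx1 (3.46), and at 120 h the highest in Id1 (21.9) and Id3 (67.4). At 96 h the highest means were in Del(CBS1-2) for Id1 (31.1), Ins(2xCBS-d4d8) for Id2 (27.6) and Msx1 (17.9), and Del(d1-d4) for Id3 (49.7). At 120 h the lowest means were in Ins(2xCBS-d4d8) for Id1 (11.6), Del(CBS2) for Id2 (30.3) and Del(d1-d4) for Id3 (37.8) and Msx1 (1.42), with Id2 highest in Ins(2xCBS-d4d8) (72.0) and Msx1 in Del(CBS1-2) (6.98). Msx2 ran from 0.145 in Del(CBS1) to 0.517 in Del(CBS1-5) at 96 h and from 0.139 in Ins(2xCBS-d4d8) to 0.530 in Del(CBS1-5) at 120 h.

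At 144 h there were 2 mutants. Del(CBS1-5) had the higher mean of Bmp2 (1.02 against 0.758 FPKM in Del(CBS4)), Bmp4 (1.90 against 1.44), Bmp7 (6.87 against 6.48) and Msx2 (0.508 against 0.370). Del(CBS4) had the higher mean of Nog (0.776 against 0.363), Chrd (2.86 against 1.79), Id1 (29.7 against 28.8), Id2 (82.4 against 79.1), Id3 (117 against 82.8) and Msx1 (3.20 against 0.992). The 2 mutants were not tested against each other. Low genes are the least precise, since cufflinks' own confidence interval reached from the value to its upper or lower end a median of 48.5% of the value for Msx2 and 46.0% for Nog, against 5.74% for Id3.

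Of the other pathway genes, 79 of 646 tests in the mutants passed, 46 higher and 33 lower, a share near the 12.1% of all gene tests, and their median log2 change was -0.01. With controls of the same library set 57 passed, 42 of them among the 79, against 6.24% of all gene tests. Calls were most numerous in Del(CBS4) at 120 h (16 of 38), Del(CBS1-5) at 144 h (14 of 38) and Del(sub-TAD1) at 96 h (11 of 38), the comparisons in which 37.5%, 23.7% and 40.0% of all genes passed. In Del(sub-TAD1) at 96 h, 10 of the 11 were higher, and the 1 that was lower was Cer1 (log2 change -2.10, SE 0.82, limma adjusted p = 0.0390), singled out here after its value was seen.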

How the data were processed

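The authors trimmed stranded poly-A libraries with cutadapt (version 1.16), aligned them with STAR (2.7.7a) to mm10 and estimated FPKM with Cufflinks (2.2.1) against an Ensembl-based annotation. The deposited FPKM values of 61 libraries (28 conditions) were used, with Cufflinks' intervals. No library had been pooled with another, and no counts were used here. Whether Cufflinks used strand is not given in the sources used here. Depth per library, 15.1 to 38.9 M fragments, was inferred from steps in the low values.

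Values were tested as log2(FPKM + 0.1) in limma (3.58.1, R 4.3.3), without rescaling between libraries. The fit had 1 coefficient per condition over all 61 libraries (33 residual degrees of freedom). It covered the 17098 genes with a mean of at least 1 FPKM in at least 1 condition. Tests were two-sided, with Benjamini-Hochberg adjustment over all genes per contrast and a threshold of 0.05. Members and lists were chosen with earlier results of these data known. The contrasts of 168 against 72 h and of 120 against 96 h within the time course were chosen after seeing the data.

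All members were described, with their calls and the mutants of highest and lowest mean at each stage. Up to 3 other pathway genes per role, those with the widest span of stage means, and the 3 genes most correlated with each member were named. Same-numbered wt controls of 96 and 120 h deviated together (correlations 0.561 to 0.889 over 4 pairs), whereas time-course steps (-0.04 to 0.09) and mutants (-0.09 to 0.08) did not. The number pairs are from the labels. The limma script was tested on simulated data for the comparison of Ins(2xCBS-d4d8) at 96 h over 17098 genes. It recovered 54% of genes changed by 1 on the log2 scale and 74% of those changed by 2, with 5.19% false among 135 calls. The simulation had no difference between library sets, whereas both libraries of this mutant were in set 2 and most controls in set 1. Its false share therefore does not cover that difference. Alternatives were the pseudocount, the filter, the scaling, the variance fit, a replicate block, the samples fitted and each replicate left out. Positions on the time course came from 1000 genes. The windows before transcript starts are from RefSeq (GRCm38.p6). Tables were read with pandas (2.3.3).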

Additional observations from a re-analysis of the deposited data

Results flagged for a closer look

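One library stood apart within its group of 4, replicate 3 of the wt controls at 96 h, with 0.271 FPKM of Msx2 against 0.140 to 0.142 in the others. Of 20 groups examined this was the 1 so marked, and chance marks about 1 in 20.

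For 8 members and lines the mutant effect differed between stages by the limma interaction contrast, with adjusted p under 0.05 (8 of 100 member tests, against 5.02% of all gene tests over the same contrasts). Going from 96 to 120 h, the Del(sub-TAD1) effect changed by -1.46 for Bmp7, 1.26 for Id1 and 1.13 for Id3 on the log2 scale. In Del(CBS1-5) it was -0.91 for Bmp7 at 120 against 96 h, and for Nog -1.66 at 144 against 120 h and -1.25 at 144 against 96 h. In Del(CBS4) it was -1.09 for Id2 at 144 against 120 h. In Ins(2xCBS-d4d8) it was -1.63 for Nog at 120 against 96 h. Against controls drawn from the matching library set, the Del(sub-TAD1) differences (-1.13, 1.73 and 1.54) and that of Nog between 144 and 120 h (-1.72) passed again.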

How the results depend on the processing

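The fit of the compared groups alone, which has few residual degrees of freedom, made 2 member calls over the time-course steps (none of the 18), 9 of other pathway genes (6 of the 67), 5 member calls over the mutants (4 of the 36) and 18 other calls there (15 of the 79), and 2 in the wt controls (2 of the 5). Controls of the same library set gave 19 member calls in the mutants (15 of the 36) and 5 between stages (4 of the 8). In the wt controls the larger set alone gave 1 call and the fit without the filter 3, all among the 5. In other fits all libraries of 1 replicate number were left out at once, from the time course, the wt controls or the mutants. Without replicate 1 or 2 of the time course or of the mutants, each such group kept 1 library, except Del(sub-TAD1) at 96 h. Over these fits the counts ranged from 10 to 16 over the steps and 50 to 50 for other pathway genes. Over the mutants they ranged from 5 to 41, and from 8 to 95 for other pathway genes there. They were 2 to 4 in the controls and 0 to 10 between stages. That 0, by limma without mutant replicate 2, stood beside 11 of 100 tests at an unadjusted p under 0.05.

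The direction reversed for Bmp4 alone. From 84 to 96 h it was -0.13 when time course and other wt libraries were joined, and from 96 to 120 h of the time course it was 0.011 without replicate 2 and -1.75 without replicate 1. The cause was not tested. With the replicate block 23 calls passed over the steps, 36 over the mutants, 7 in the wt controls and 12 between stages, but only the wt controls were paired. Median-ratio scaling gave 42 mutant calls, 69.0% of them higher, against 75% of 36. Of 78 member calls, 16 were kept under every alternative run but the fit of the compared groups alone. Depth limits Nog and Msx2 most.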
